A study of Mus musculus with 39 samples.

Results

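Histone H3 trimethylated at lysine 9 (H3K9me3) was compared between 2 sorted populations of mouse naive extra-embryonic endoderm (nEnd) cultures, the DP and the Pdgfra+ cells. The members were chosen by their labels: the 3 H3K9me3 peak lists of DP cells and the 3 of Pdgfra+ cells, 6 of the 36 lists of the series. nEnd cultures are stem cell lines that model the primitive endoderm, the extra-embryonic lineage of the blastocyst. The cells carried an OCT4-mCherry reporter, were cultured without any further treatment on fibroblast feeders in RACL medium, and were sorted by flow cytometry for OCT4-mCherry and for surface PDGFRA. DP cells were positive for both proteins and Pdgfra+ cells for PDGFRA only, so both groups share the line, the medium and the PDGFRA gate and differ in the OCT4 gate. The replicates of a population come from 1 reporter line, which limits them as a model of other lines.

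H3K9me3 marks constitutive heterochromatin. It coats the satellite repeats around centromeres, silences transposable elements through KRAB zinc finger proteins and the co-repressor TRIM28, covers the clustered genes that encode those zinc finger proteins, and marks the silent parental copy of imprinting control regions. In CUT&Tag, a transposase tethered to an antibody cuts and tags the chromatin where the antibody sits, and a peak here is an interval whose fragment coverage passed the SEACR stringent call against an IgG library. A list therefore holds only called intervals, and an interval absent from a list can still carry signal.

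The DP lists held 13676, 26981 and 12701 peaks and the Pdgfra+ lists 29970 and 13110, with replicate 2 the shortest of the 6. They covered 41.3, 80.9 and 37.6 Mb in DP and 122, 18.2 and 45.6 Mb in Pdgfra+ cells. The lists of 1 population thus differed from each other more than the populations did (exact permutation p = 0.9 for the number of peaks and 0.8 for the covered length). Each comparison was therefore made with all peaks and again at equal list length, that is, with the peaks of highest total signal in each list, as many as the shortest list, Pdgfra+ replicate 2, holds. The library is the unit throughout: 3 libraries against 3 give 20 splits and a smallest two-sided exact p of 0.1, so no single comparison could pass 0.05, and "apart" below means that all 3 values of one population lie above all 3 of the other. The sequencing depth behind the lists is unknown, and total signal, the summed coverage of a peak, was not scaled to it.

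As a check of the sort, the acetylation mark H3K27ac of the same populations was read over fixed marker genes. Of 7 genes for the sorted proteins and endoderm factors, 7, 3 and 6 carried an H3K27ac peak in the DP libraries and 5, 5 and 6 in the Pdgfra+ libraries. Gata6, Gata4 and Sox7, transcription factors of the primitive endoderm, were acetylated in all 6 libraries. Dab2 was acetylated in 2 DP and 0 Pdgfra+ libraries, and Pdgfra and Sox17 in 2 DP and 3 Pdgfra+ libraries each. None of the 7 genes held an H3K9me3 peak in any library. Of 15 fibroblast genes, which would mark the feeders, only Lum in DP replicate 1 was acetylated. Of 5 pluripotency genes, 2, 0 and 1 were acetylated in DP and 0, 0 and 1 in Pdgfra+ cells. An H3K9me3 peak lay over 2, 2 and 1 of them in DP and 1, 1 and 1 in Pdgfra+ cells. These were Pecam1 in all 6 libraries and Esrrb in 2 DP and 0 Pdgfra+ libraries. Pou5f1, which encodes OCT4, was acetylated in 1 library of each population.

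Among regions listed in all 6 libraries, the largest ratio of total signal between the populations lay in a tandem repeat. A pair of letter strings was counted on both strands: string A, GGAATATGG, which recurs in the mouse major satellite of pericentromeric heterochromatin, and string B, GCTCCACTGTG, from arrays that lie mostly near the first assembled bases of chromosomes. String A occurs 26559 times in the assembly and was found in 4.75% of the 43936 regions obtained by merging the 6 lists, and string B occurs 4130 times and was found in 0.728% of them. These strings were picked after the strongest regions had been seen. String A was read from chr9:35305212-35306086 and string B from chr16:3231573-3248635, both listed in Pdgfra+ cells only. The choice of strings therefore favoured Pdgfra+ cells, and the counts and shares below include both regions. The values below are a description with no test. The sequences below show the arrays on which the comparison turns, around the base of highest coverage in a listed peak, with each copy of the string in capitals on the plus strand of GRCm38 (the reverse complement CCATATTCC is string A on the other strand).
Array of A, chr9:3032323-3032442, listed in all 6 libraries and stronger in Pdgfra+ cells: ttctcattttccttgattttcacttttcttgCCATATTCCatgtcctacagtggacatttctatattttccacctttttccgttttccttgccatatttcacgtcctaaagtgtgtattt
Array of A, chr9:35305396-35305515, listed in Pdgfra+ cells only: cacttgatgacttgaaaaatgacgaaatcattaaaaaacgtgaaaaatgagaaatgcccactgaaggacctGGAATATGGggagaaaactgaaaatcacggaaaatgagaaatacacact
Array of A, chr11:3101640-3101759, listed in Pdgfra+ cells only: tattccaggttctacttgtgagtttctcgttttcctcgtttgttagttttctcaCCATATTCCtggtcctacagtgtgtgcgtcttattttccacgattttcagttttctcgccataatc
Array of A, chr12:74804228-74804347, listed in all 6 libraries with overlapping totals: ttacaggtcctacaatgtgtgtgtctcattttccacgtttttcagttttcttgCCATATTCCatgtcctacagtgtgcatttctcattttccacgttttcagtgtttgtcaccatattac
Array of B, chr16:3236970-3237089, listed in Pdgfra+ cells only: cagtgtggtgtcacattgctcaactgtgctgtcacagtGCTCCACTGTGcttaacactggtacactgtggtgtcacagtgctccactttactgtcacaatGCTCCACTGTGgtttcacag
Array of B, chr17:3020148-3020267, listed in all 6 libraries with overlapping totals: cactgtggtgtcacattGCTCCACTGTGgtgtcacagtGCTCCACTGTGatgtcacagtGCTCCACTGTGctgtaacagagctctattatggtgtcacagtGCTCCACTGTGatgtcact

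On chromosome 9, the region chr9:2999998-3073390 holds 228 copies of string A. Its total signal was 182625, 170552 and 138569 in the DP libraries and 3379129, 2033513 and 2217904 in the Pdgfra+ libraries. The Pdgfra+ mean was 15.5-fold the DP mean and the groups were apart. The highest coverage at any base was 20, 25 and 18 in DP against 285, 170 and 214 in Pdgfra+ cells, so the gap lay in height as well as in length. Listed peaks covered 28705, 20070 and 22250 bases of the region in DP and 73049, 68116 and 70759 in Pdgfra+ cells. The region overlaps a run of near-identical gene models (Gm10722 to Gm10715), whose values are uncertain because a short read from one such copy can match the others, and how reads with several matches were treated is not given in the sources used here.

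That gap stood out from the other regions. Over the 2594 regions listed in all 6 libraries the median ratio of mean total signal, Pdgfra+ over DP, was 1.16 (quartiles 0.988 and 1.42), the next highest ratio was 5.59, on chromosome 15 at 87780211-87799778, and the lowest was 0.462. Of these regions, 4.86% were apart with more signal in Pdgfra+ and 0.617% with more in DP cells, and of all 43936 merged regions 1.29% and 1.53%. Of the 18 libraries of H3K4me1, H3K27ac and H3K27me3 from the same populations, 1 listed a peak in the chromosome 9 region. H3K27ac peaks were listed in 3 of them in the chromosome 16 and in the chromosome 4 array described below, and in 2 in the chromosome 17 array.

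Further arrays of string A were listed in Pdgfra+ cells only. The region chr9:35305212-35306086, 875 bases with 2 copies over the long non-coding RNA model Gm33838, had totals of 225501, 168772 and 178814 in Pdgfra+ cells and no listed peak in the DP libraries. Its highest coverage, 1129, 868 and 895, was above that of the region at the start of chromosome 9. The region chr11:3100005-3105888, with 27 copies and the start of Sfi1 as the nearest, reached 299132, 181667 and 207088, again with no listed peak in DP. The absence of a listed peak means that the call was not passed in the DP libraries, and no fold is given. The series holds an IgG library for DP cells and another for Pdgfra+ cells, without replicates. The calls in the libraries of a population may therefore rest on the same control.

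Other arrays behaved differently. Region chr4:3078177-3091842, which holds both strings, had totals of 104664, 144890 and 104264 in DP and 421249, 240655 and 259630 in Pdgfra+ cells, a 2.60-fold difference of the means. Region chr2:98661903-98665702, over the gene model Gm10801, went the other way with 181436, 191245 and 167595 in DP against no peak, 151982 and 166028 in Pdgfra+ cells. The array at chr12:74803027-74805227 overlapped between populations, with 38164, 40585 and 39091 against 52545, 33136 and 37101. Of the 7 dense A regions with a peak in every library of a population, 4 were therefore higher in Pdgfra+, 1 in DP and 2 overlapped. The 4 include the region from which string A was read. That region and the chromosome 11 region met the rule through Pdgfra+ cells only, so they could only be counted as higher there. The share of apart regions among all merged regions meeting the same rule was not measured.

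String B gave a smaller gap. Region chr16:3231573-3248635, with 72 copies, had totals of 457900, 235905 and 265874 in Pdgfra+ cells and no listed peak in DP. The longest B array, chr17:3003209-3039402 with 244 copies, overlapped, with 285507, 365219 and 258078 in DP and 456958, 231468 and 294762 in Pdgfra+ cells. Of the 8 dense B regions with a peak in every library of a population, 2 were higher in Pdgfra+ cells and 6 overlapped. The 2 are the region from which string B was read and the chromosome 4 region, which is also among the 4 A regions. The first met the rule through Pdgfra+ cells only. In the second, the 120 bases around the highest coverage hold 2 copies of string A and 0 of string B.

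**Figure D1:**
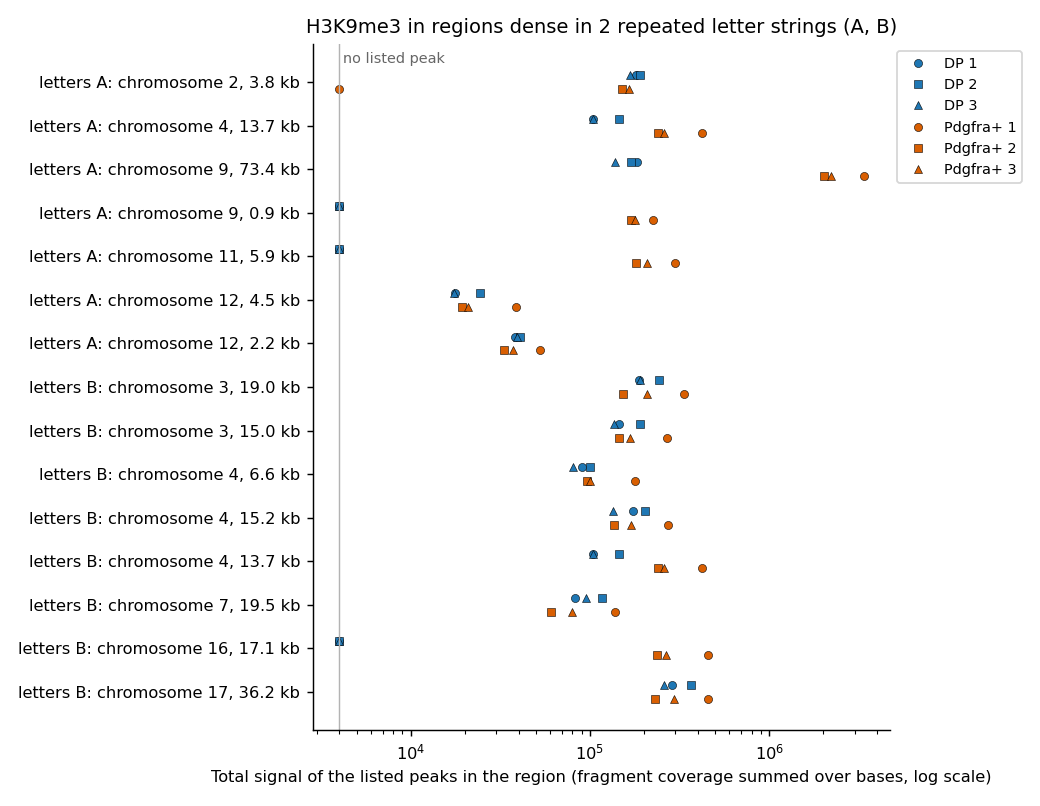
Total signal of the listed peaks (horizontal axis, log scale, summed coverage) in each dense A or B region for the 3 DP (blue) and 3 Pdgfra+ (orange) libraries. Points on the line at the left have no listed peak; the chromosome 9 region of 73.4 kb separates the populations by 15.5-fold, while the chromosome 17 array overlaps.

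As a share of each list's signal, A regions took 0.349%, 0.199% and 0.321% in DP and 0.870%, 4.14% and 1.68% in Pdgfra+ cells. The means were 0.289% ± 0.0796 and 2.23% ± 1.70 (SD, n = 3 each). Most of the Pdgfra+ share came from 1 region, chr9:2999998-3073390. That region alone took 0.121%, 0.0585% and 0.0938% in DP and 0.663%, 2.97% and 1.20% in Pdgfra+ cells. With lists of equal length the shares of all A regions were 0.610%, 0.508% and 0.513% against 2.22%, 4.14% and 2.80%, apart in the same direction. B regions took 0.711%, 0.470% and 0.675% against 0.497%, 1.89% and 0.838%, which overlap. At equal list length they took at most 1.24% in DP against 1.27%, 1.89% and 1.39%, apart toward Pdgfra+ cells. The B shares include the chromosome 16 region from which string B was read. They also include the chromosome 4 region, which the A shares include too. Without replicate 2 of both populations the difference in the A share, DP minus Pdgfra+, went from -1.94 to -0.939 points. Pdgfra+ replicate 2 gave the highest share of both in both settings and also had the shortest list.

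The coverage was also spread differently over the chromosomes. The share of a list's covered bases on each chromosome was apart for 7 of 21 chromosomes with all peaks, 5 higher in DP (23.8% of those tested) and 2 higher in Pdgfra+ (9.52%), and for 12 at equal list length, 8 (38.1%) and 4 (19%). The 6 chromosomes that were apart in the same direction in both were 2 and 12, higher in Pdgfra+, and 6, 10, 13 and 19, higher in DP cells. Every one had an exact permutation p of 0.1 and an adjusted p of 0.3 with all peaks.

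Chromosome 2 held 7.24%, 7.48% and 7.30% of the covered bases in DP and 8.84%, 8.37% and 8.50% in Pdgfra+ cells, means of 7.34% ± 0.124 and 8.57% ± 0.243 (SD, n = 3). Chromosome 12 held 4.69%, 4.58% and 4.58% against 5.03%, 6.21% and 5.27%. Chromosome 19, which is short and gene dense, held 1.44%, 1.5% and 1.47% against 1.10%, 1.10% and 1.29%. The Pdgfra+ libraries thus carried more of their covered bases on chromosomes 2 and 12 and less on chromosome 19. By share of peaks, chromosomes 2 and 19 were still apart, while 12 overlapped, at 4.69%, 4.5% and 4.57% against 4.65%, 5.99% and 5.05%, as did 6, 10 and 13. The X chromosome, 6.28% of the assembly's length, held only 0.754%, 0.654% and 0.803% in DP and 0.624%, 0.335% and 0.386% in Pdgfra+ cells, apart with all peaks but not at equal list length.

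**Figure D2:**
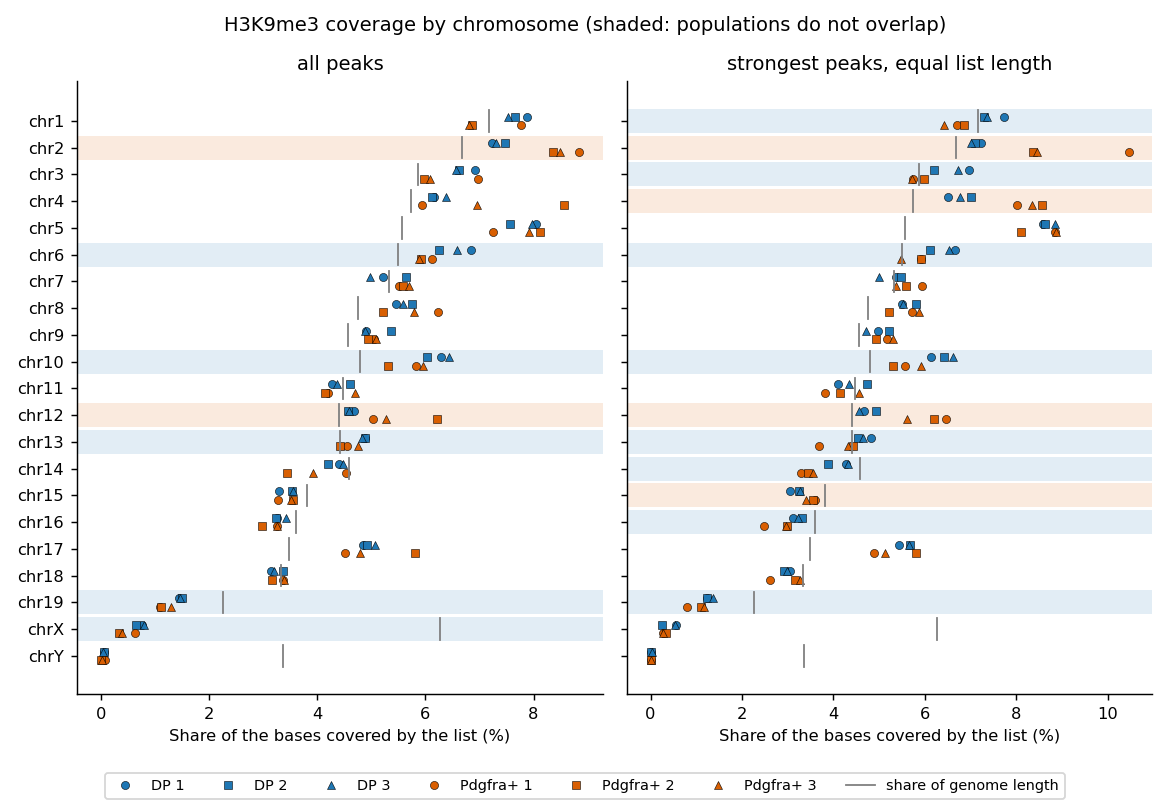
Share of each list's covered bases on every chromosome (percent, horizontal axis), with all peaks and at equal list length, for the 3 DP and 3 Pdgfra+ libraries; grey ticks give the share of genome length. Shading marks chromosomes where the populations do not overlap, such as 2 (7.34% against 8.57% on average), and every X point lies far left of its tick at 6.28%.

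In windows of 1 Mb, 376 of 2737 (13.7%) held a larger share of the covered bases in every DP library and 141 (5.15%) in every Pdgfra+ library, and at equal list length 9.83% and 5.15%. Among the windows apart toward Pdgfra+ cells in both settings, that of chromosome 12 from 109 Mb, which holds the imprinted genes Dlk1 and Rtl1, was at 0.190%, 0.175% and 0.169% against 0.303%, 0.473% and 0.339%. A window without protein-coding genes on chromosome 2 from 159 Mb was at 0.0538%, 0.112% and 0.0446% against 0.322%, 0.243% and 0.290%.

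The windows apart toward DP cells in both settings included that of Epas1, a gene described below. The window with Epas1, the hypoxia-responsive factor HIF-2α, on chromosome 17 from 86 Mb was at 0.0936%, 0.0833% and 0.0851% in DP against 0.0251%, 0.0459% and 0.0386% in Pdgfra+ cells. Neighbouring windows are not independent.

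Gene clusters were runs of at least 5 genes of 1 family, 118 in all. By the percent of the cluster covered with all peaks, 1 was apart with more coverage in DP (0.847% of those tested) and 0 in Pdgfra+ cells. That cluster, the olfactory receptor genes Olfr56 to Olfr1380 at chr11:48978889-49565859, was covered over 1.11%, 2.28% and 1.33% in DP and 0.382%, 0% and 0.488% in Pdgfra+ cells (exact permutation p = 0.1, adjusted p = 1). Without replicate 1 of both populations 44 clusters were apart toward DP, and without replicate 2, 45 toward Pdgfra+ cells. In lists of equal length 8 were apart toward DP and 7 toward Pdgfra+ cells (6.78% and 5.93%). Because the lists differ several-fold in covered length, coverage was also divided by the share of the genome that the same list covers, a measure added after the lists had been seen. By it 12 clusters were higher in DP and 9 in Pdgfra+ cells (10.2% and 7.63%), and at equal list length 15 and 9 (12.7% and 7.63%).

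Serpin clusters, which encode secreted and intracellular protease inhibitors, were relatively more covered in DP cells in both settings. Serpina10 to Serpina3n, 23 genes at chr12:103614786-104414329, had a relative coverage of 2.26, 2.0 and 2.10 times the genome average in DP and 1.44, 1.14 and 1.35 in Pdgfra+ cells. Serpinb1a to Serpinb6a, at chr13:32842092-34002794, had 2.22, 1.58 and 2.08 against 0.819, 1.29 and 1.09. The vomeronasal receptors Vmn2r1 to Vmn2r7 at chr3:64081547-64844765, receptors of pheromone-sensing neurons, had 2.53, 1.04 and 1.94 against 0.779, 0 and 0.853.

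Toward Pdgfra+ cells, the natural killer receptor cluster Klre1 to Klra1, 18 genes at chr6:129577905-130386874, had a relative coverage of 2.58, 2.37 and 2.71 in DP and 3.92, 5.65 and 5.29 in Pdgfra+ cells. The zinc finger cluster Zfp553 to Zfp646 at chr7:127233061-127885996 had 1.88, 1.84 and 1.62 against 2.22, 3.41 and 3.55. Olfr16 to Olfr418, at chr1:172950409-173273994, had 0.502, 0.985 and 0.523 against 2.59, 3.34 and 2.19. Receptor clusters thus stood on both sides. Over all clusters of a family, relative coverage was apart toward DP in both settings for serpins, at 2.13, 1.75 and 1.81 against 1.46, 1.41 and 1.14 with all peaks, and for the 1 Pramef cluster, at 1.18, 1.22 and 2.07 against 0.868, 0.823 and 0.838. The zinc finger family had 3.46, 2.67 and 3.84 against 2.16, 6.12 and 3.89, which overlap.

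The most covered clusters were the same kinds in both populations. Zfp653 to Zfp810 at chr9:22055411-22307648 was covered over 13.6%, 23.5% and 17.5% in DP and 30.2%, 12.5% and 22.3% in Pdgfra+ cells. Cyp3a57 to Cyp3a59 at chr5:145345279-146113287, cytochrome P450 enzymes of drug and steroid oxidation, was covered over 12.4%, 14.6% and 11.8% against 36.9%, 7.97% and 16.5%. At the other end, the Mage and Xlr clusters were at 0% in all 6 lists, and the Hox and the histone clusters were covered in DP replicate 3 only, over 0.510% and 0.321% of their span.

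Of 21938 protein-coding genes, 11.9%, 19.4% and 11.7% had a peak over the body or the 1 kb upstream in DP and 18.4%, 5.82% and 12.6% in Pdgfra+ cells, and 943 (4.30%) had one in all 6 libraries. A peak in every DP and in no Pdgfra+ library was seen for 96 genes (0.438%), and the reverse for 32 (0.146%). At equal list length the numbers were 56 (0.255%) and 51 (0.232%), and 5 and 14 genes were in both settings. At equal list length the numbers in the 2 directions were therefore close. The balance with all peaks also turned on single libraries: without replicate 1 of both populations 497 genes were DP-only and 38 Pdgfra+-only, and without replicate 2 the numbers were 124 and 422.

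Of the 10 named genes with a peak in DP libraries only, 7 held their highest peak outside exons. Among the named Pdgfra+-only genes, Ppfia2, Arpp21, Cpq and Fam178b did so. The share over all genes was not measured, so these counts are a description only. Epas1 (chr17:86753700-86833410) was covered over 3247, 8061 and 2959 bases in DP libraries, by an intronic peak 12.5 kb from its start, and over 0 bases in each Pdgfra+ library. Lpar3 (chr3:146220963-146286186), a lysophosphatidic acid receptor, was covered over 5865, 6018 and 3847 bases, and 4931409K22Rik (chr5:24543432-24556809) over 4814, 5999 and 3851. Those last genes kept a peak in all 3 DP lists at equal list length, whereas Epas1 did so in 1. The other 7 named genes, Sh3gl2, Crtac1, Reps1, Vwa3a, Psmg4, F830045P16Rik and Lyzl4, had means of 4561 to 6021 covered bases, and between 0 and 2 DP libraries kept them at equal list length.

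The Pdgfra+-only genes included transcription regulators, as did the DP-only genes with Epas1. Sall4 (chr2:168748332-168767943), a zinc finger factor of pluripotent cells, was covered over 8810, 2067 and 2917 bases at its 3′ end in Pdgfra+ cells, and over 8810, 2067 and 0 at equal list length. Zbtb7a (chr10:81135220-81152995), a transcriptional repressor, was covered over 6729, 3093 and 4283 bases and Zfp82 over 4297, 2957 and 4525, and both kept their peaks in all 3 libraries at equal list length. Neither gene had a listed peak in a DP library. Ppfia2, Arpp21, Cpq and Fam178b, with means of 3747 to 11956 covered bases, kept theirs in 1 or 2 libraries, and Gm10717, Gm10719 and Gm11168 lie in the chromosome 9 repeat.

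Among 18695 genes of at least 5 kb, the percent of the body covered was apart toward DP for 189 (1.01%) and toward Pdgfra+ cells for 91 (0.487%), and at equal list length for 109 (0.583%) and 141 (0.754%). In both settings 28 were higher in DP and 45 in Pdgfra+ cells. Crlf2 (chr5:109554709-109558993), a receptor chain for the cytokine TSLP, was covered over 62.6%, 59.1% and 58.5% in DP and 15.9%, 5.15% and 0% in Pdgfra+ cells. Naip6, a sensor of bacterial proteins in inflammasomes, was at 29.1%, 45.9% and 33.4% against 19.6%, 0% and 5.73%. Duox2, an oxidase that makes hydrogen peroxide, was at 14.7%, 21.9% and 16.1% against 0%, 0% and 11.8%. Crlf2 had the smallest spread among the DP libraries of these, 60.1% ± 2.21 (SD, n = 3).

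In the opposite direction, Grin3b (chr10:79970715-79977190), a subunit of NMDA glutamate receptors, was at 0%, 49.1% and 19.3% in DP and 74.7%, 67.6% and 54.7% in Pdgfra+ cells. Ptger1 (chr8:83666678-83672753), a prostaglandin E2 receptor, was at 0%, 36.0% and 26.4% against 75.3%, 41.2% and 44.6%. Both had large spread among DP libraries. The gap for Zbtb7a was 0% against 35.8%, 16.5% and 22.8%, and Zfp959 was at 0%, 0% and 25.7% against 46.7%, 33.6% and 29.4%.

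The genes with the highest coverage in all libraries did not separate the populations. Il3ra, a cytokine receptor chain, was at 79.5%, 95.1% and 88.9% in DP and 100%, 69.7% and 80.3% in Pdgfra+ cells. Zfp445, which encodes a zinc finger protein that guards imprints, was at 63.6%, 86.8% and 65.5% against 83.9%, 80.2% and 84.2%. Itln1, a lectin, hardly varied, at 62.0%, 63.3% and 62.5% against 66.4%, 60.2% and 61.4%.

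**Figure D3:**
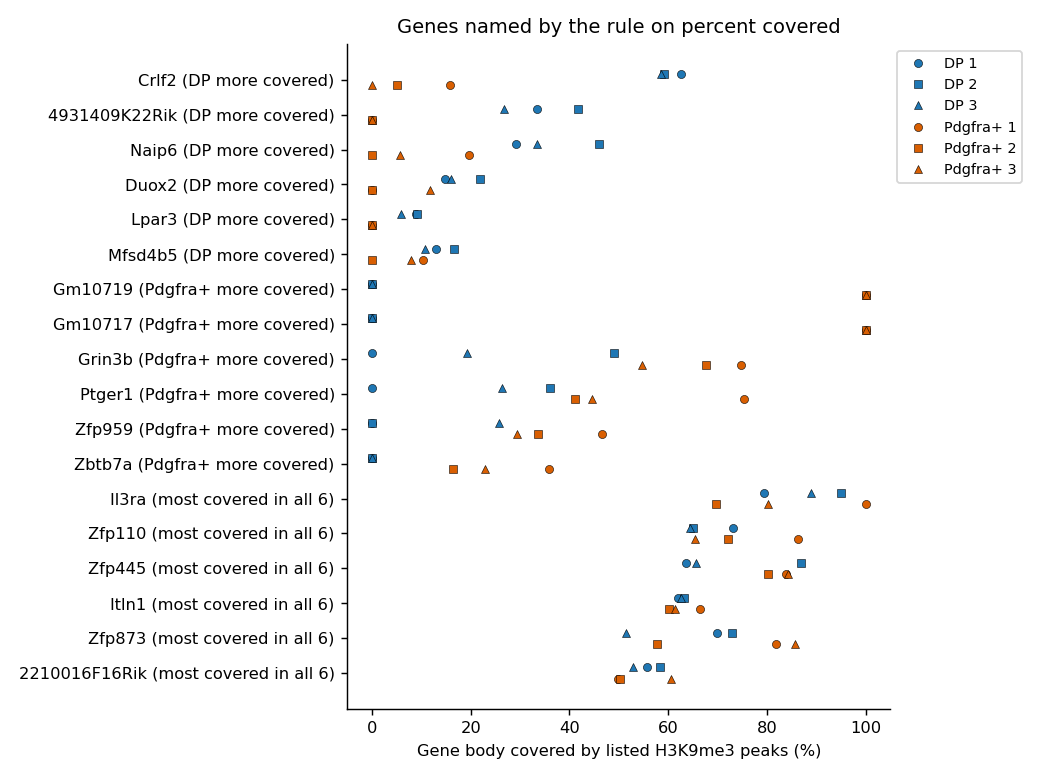
Percent of the gene body covered by listed H3K9me3 peaks (horizontal axis) for the genes named by size of difference or by lowest coverage over all libraries, with 1 point per DP (blue) and Pdgfra+ (orange) library. Crlf2 sits at 58.5% to 62.6% in DP and at most 15.9% in Pdgfra+ cells, and Itln1 between 60.2% and 66.4% in all 6.

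Gene lists were read as the percent of members with a peak minus the percent of all protein-coding genes in the same library, in percentage points. The widest margin over all genes was that of imprinted genes, which are expressed from 1 parental copy. Of 42 members, 29, 30 and 29 had a peak in DP and 30, 21 and 30 in Pdgfra+ cells, 55.5 ± 3.04 and 52.0 ± 7.39 points above all genes (SD, n = 3 each, exact permutation p = 0.7), and 34 had one in any library. In 19 members all 6 libraries had a peak, 1 was Pdgfra+-only and 0 were DP-only. Gnas, a complex locus for a G protein subunit, was covered over 10574, 9018 and 9232 bases in DP and 17437, 6136 and 13012 in Pdgfra+ cells.

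Single imprinted genes were apart or uneven. Slc38a4, an amino acid transporter, had no listed peak in the DP libraries and 3207, 3620 and 3621 covered bases in Pdgfra+ cells. Meg3, a maternally expressed long non-coding RNA, was covered over 1841, 1660 and 0 bases in DP and 22298, 3316 and 11081 in Pdgfra+ cells. H19, the non-coding RNA beside Igf2, went the other way with 1758, 1091 and 840 against 0, 0 and 997, which overlap. At equal list length Meg3 was listed in 0 DP and 3 Pdgfra+ libraries.

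Bases of imprinted genes listed in all 6 libraries formed 15 intervals of 39.3 kb in all. TGCCGC, the core letters of the motif of ZFP57, a zinc finger protein of imprinting control regions, was searched on both strands. It was in 9 of these 15 intervals and in 570 of all 2752 intervals listed in all 6 libraries. The copies per kb were 1.02 and 0.131, against 0.0616 over the whole assembly. The letters hold a CG, and the intervals were not matched for base composition or for overlap with exons. These values are therefore a description with no test. A pair of stretches from introns of Gnas and Inpp5f, chosen as the densest in the letters, is shown with TGCCGC or its reverse complement GCGGCA in capitals, on the plus strand.
Gnas, chr2:174295841-174295960: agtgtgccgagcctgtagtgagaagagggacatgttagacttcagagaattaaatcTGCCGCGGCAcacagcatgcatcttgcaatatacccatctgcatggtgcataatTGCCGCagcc
Inpp5f, chr7:128687892-128688011: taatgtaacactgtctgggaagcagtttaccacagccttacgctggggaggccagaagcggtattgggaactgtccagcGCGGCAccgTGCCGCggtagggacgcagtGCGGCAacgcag

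The interval around the Gnas stretch, chr2:174294841-174297365, lay in peaks with a total signal of 31716, 27694 and 33726 in DP and 52623, 12118 and 49395 in Pdgfra+ cells. That around Inpp5f, chr7:128684882-128688974, lay in peaks of 21000, 31876 and 29998 against 46429, 20947 and 33865. The totals of both overlapped between populations.

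Germline genes, which act in meiosis and in piRNA-guided silencing, were apart with all peaks. Of 40 members, 7, 11 and 7 had a peak in DP and 6, 1 and 4 in Pdgfra+ cells, 6.48 ± 1.37 points above and 3.09 ± 0.453 below all genes (exact permutation p = 0.1, adjusted p = 0.4 over 12 lists). Hormad2 and Tdrd1 had a peak in 3 DP libraries and in 1 and 2 Pdgfra+ libraries, and Dazl, an RNA-binding protein of germ cells, in all 6. With lists of equal length only 3 members had any peak, and the libraries overlapped (exact permutation p = 0.4).

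Olfactory receptor genes lay below all genes in both populations. Of 1135, 37, 74 and 29 had a peak in DP and 183, 19 and 48 in Pdgfra+ cells, 10.2 ± 2.34 and 4.91 ± 3.11 points below all genes. The 329 vomeronasal receptor genes were 6.55 ± 1.73 and 2.63 ± 1.85 points below. Both lists were apart with all peaks (exact permutation p = 0.1, adjusted p = 0.4 each) and overlapped at equal list length. A list cannot lie further below all genes than their own percent, 5.82% in Pdgfra+ replicate 2 and 11.7% to 19.4% in DP. The margin thus depends on list length. The plain percent of olfactory members overlapped, at 3.26%, 6.52% and 2.56% against 16.1%, 1.67% and 4.23%. That of vomeronasal members did too, at 6.69%, 10.9% and 5.78% against 17.3%, 3.65% and 7.90%.

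Zinc finger genes overlapped with all peaks over the body and were apart at equal list length. Of 462, 123, 173 and 124 had a peak in DP and 192, 101 and 159 in Pdgfra+ cells, 15.9 ± 1.79 and 20.4 ± 3.79 points above all genes, which overlap (exact permutation p = 0.2). In lists of equal length the margins were 13.2 ± 1.24 and 18.3 ± 2.02 points, apart toward Pdgfra+ cells (exact permutation p = 0.1, adjusted p = 0.6). There 10 of the 462 members were Pdgfra+-only and 1 DP-only, beside 0.232% and 0.255% of all protein-coding genes. With all peaks 3 members were Pdgfra+-only and 0 DP-only, beside 0.146% and 0.438%.

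The other lists overlapped between populations with all peaks over the body. With peaks within 20 kb of the gene start, endoderm genes, H3K9 methylation machinery and fibroblast genes were apart, by -6.09, -4.53 and 12.1 points, DP minus Pdgfra+ (exact permutation p = 0.1 each), as were zinc finger genes, by -3.42. Of 25 long neural adhesion and synapse genes, 13, 16 and 12 had a peak in DP and 17, 11 and 13 in Pdgfra+ cells, and Dab1, an adaptor of reelin signalling, was covered over 15616, 37189 and 10347 bases against 154449, 3149 and 27487. Of 25 endoderm genes, 0, 0 and 0 had a peak in DP and 1, 0 and 1 in Pdgfra+ cells, and of 25 pluripotency genes 2, 3 and 1 against 2, 2 and 2, Sall4 being Pdgfra+-only. Of 30 genes of the H3K9 methylation machinery, 2, 4 and 3 had a peak against 4, 1 and 5. Trophectoderm genes were at 4, 8 and 5 of 25 against 7, 2 and 6, a count that includes Fgfr2 through a gene model that runs on into neighbouring genes. Genes of the 2-cell stage were at 6, 6 and 4 of 30 against 7, 4 and 5, with Sp110 and Duxf3 in all 6. The 15 fibroblast genes were at 2, 3 and 3 against 3, 0 and 0, and at equal list length at 2, 1 and 1 against 0, 0 and 0, apart toward DP, while 1 of them, in 1 DP library, was acetylated. The part of feeder cells in this gap was not tested.

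**Figure D4:**
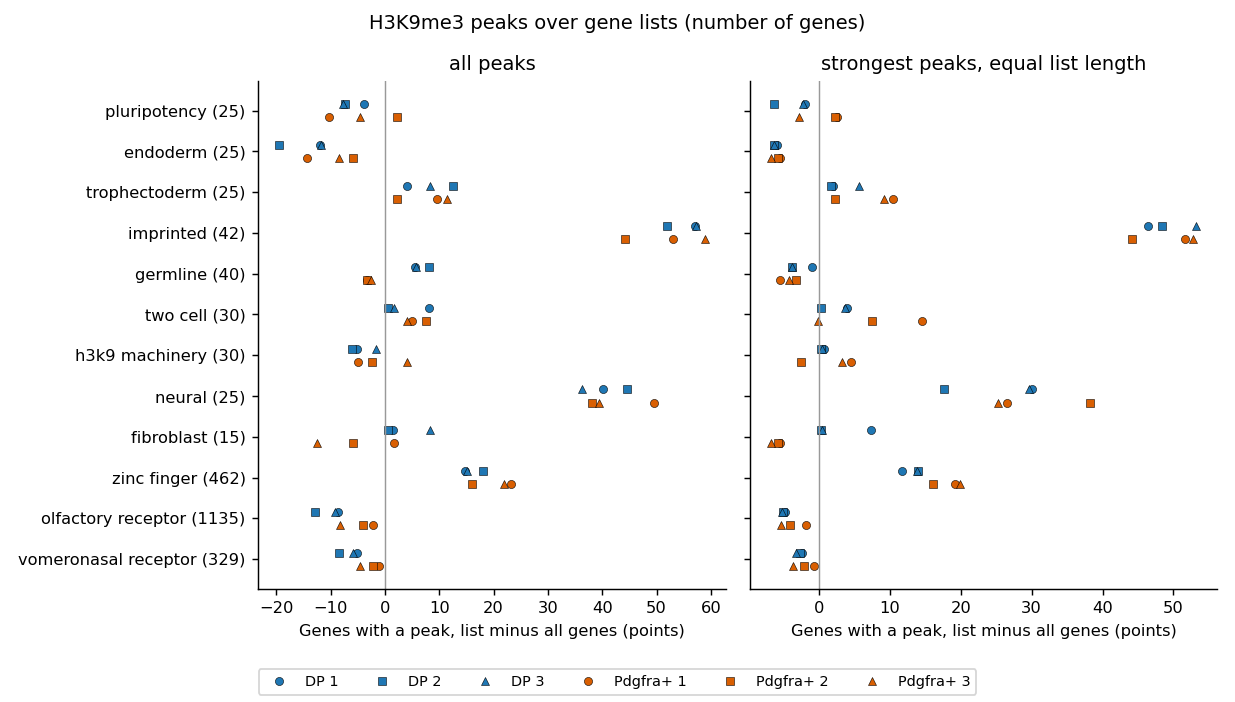
Percent of list members with a listed H3K9me3 peak minus the percent of all protein-coding genes in the same library (points, horizontal axis), with all peaks and at equal list length; the number of genes stands beside each list. Imprinted genes lie about 50 points above 0 in both populations, while germline genes separate (6.48 against -3.09) with all peaks and not at equal list length.

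Within zinc finger genes the peaks lay at the 3′ end, where the zinc finger array is encoded in most such genes. The last 2 kb held a peak in 16.7%, 23.2% and 17.3% of the 462 genes in DP and 29.0%, 14.7% and 23.8% in Pdgfra+ cells. The window within 1 kb of the start held one in 1.08%, 2.81% and 1.52% against 3.25%, 0.866% and 1.95%. Over all protein-coding genes the last 2 kb were at 2.32%, 4.15% and 2.21% against 4.89%, 1.35% and 2.94%. End minus start was 17.2 ± 2.69 points in DP and 20.5 ± 6.07 in Pdgfra+ cells, which overlap (exact permutation p = 0.6). Members in clusters, 208 genes, were marked at the end in 23.1%, 31.2% and 24.0% against 38.5%, 21.2% and 32.2%, and the 254 others in 11.4%, 16.5% and 11.8% against 21.3%, 9.45% and 16.9%.

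**Figure D5:**
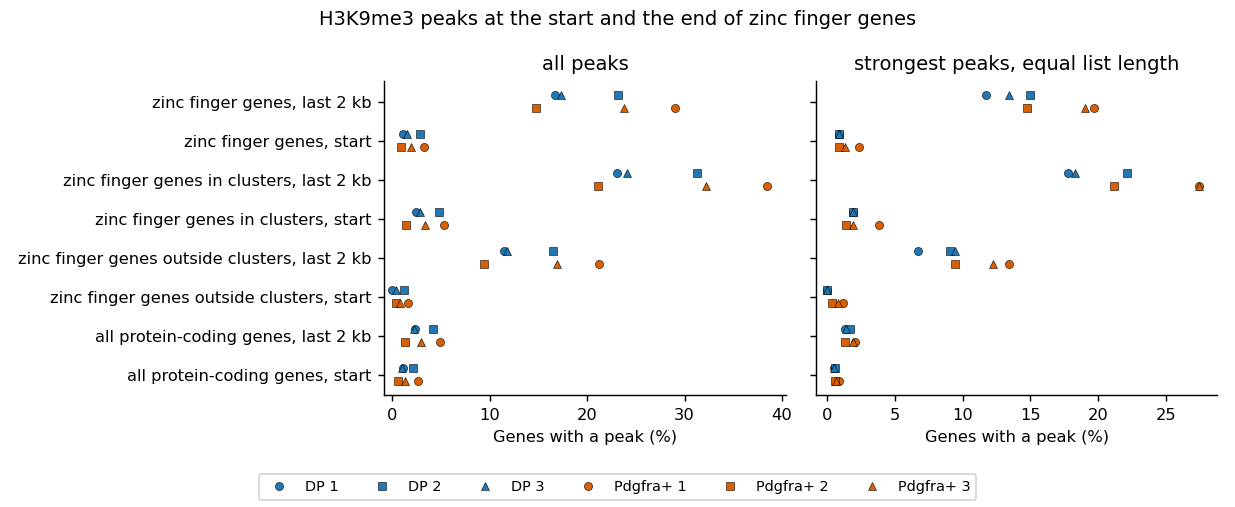
Percent of genes with a listed H3K9me3 peak over the last 2 kb or within 1 kb of the start (horizontal axis), with all peaks and at equal list length, for zinc finger genes and all protein-coding genes. In every library the ends of zinc finger genes lie right of their starts (14.7% to 29.0% against 0.866% to 3.25% with all peaks) and the populations overlap.

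Of the 43936 merged regions, 513 (1.17%) had a peak in every DP and no Pdgfra+ library, 136 (0.310%) the reverse and 2594 (5.90%) a peak in all 6. At equal list length, the classes held 232 (1.85%), 197 (1.57%) and 1279 of 12562 regions. Without replicate 1 the first pair was 3132 and 202 and without replicate 2 it was 760 and 2703, so the larger class changed with the library left out. As a description, DP-only regions were narrower than Pdgfra+-only regions, with median widths of 3442 and 5466 bp against 6474.5 bp in all 6. They were also richer in G and C (44.1% and 41.8%, genome 41.7%) and nearer to a gene start (59.7 kb and 155 kb). With lists of equal length the G and C content of both was close (44.6% and 44.2%), while width (4542 and 7134 bp) and distance (42.0 and 109 kb) kept the same order. The median peak of a list was 2701.5, 2672 and 2632 bp in DP and 3482, 3071.5 and 3086 bp in Pdgfra+ cells (exact permutation p = 0.1, adjusted p = 0.3) and overlapped at equal list length (exact permutation p = 0.7).

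The DP-only region of highest rank, chr3:62156221-62161100, had a total signal of 24532, 27123 and 28772 and lay in no gene, 180 kb from the start of Arhgef26. It was 65.2% repeat-masked. The bases around its highest coverage are shown with CG in capitals, on the plus strand of GRCm38.
DP-only region, chr3:62158572-62158691: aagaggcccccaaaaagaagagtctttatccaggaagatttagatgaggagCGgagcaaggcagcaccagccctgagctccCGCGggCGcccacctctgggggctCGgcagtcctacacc

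The totals of the DP-only regions of highest rank were below those of the Pdgfra+-only repeat arrays. The next DP-only regions were chr3:45094664-45103286, with 24237, 22170 and 19223, and chr5:24544128-24551745 in 4931409K22Rik, with 17736, 19657 and 17083. Few regions of any class met another mark. H3K27me3 peaks of DP cells overlapped 2.34% of DP-only, 1.47% of Pdgfra+-only and 1.81% of all-6 regions, against 1.35% of all regions. Those of H3K27ac overlapped 2.14%, 2.21% and 3.89% against 1.1%, and those of H3K4me1 2.14%, 2.21% and 3.59% against 1.45%.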

How the data were processed

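CUT&Tag for H3K9me3 was carried out on sorted DP and Pdgfra+ nEnd cells, 3 libraries each. Per the submitters' processing notes, reads were aligned with Bowtie2 to mm10 and handled with SAMtools 1.12, deepTools and bedtools 2.26.0. The authors called peaks per library with SEACR in its stringent setting against IgG and deposited BED lists whose signal columns give the summed and the highest fragment coverage of each peak. The signal is in whole numbers not scaled to depth, the depth is unknown, and the IgG libraries were not used here. Replicates are called biological in general terms, and if they share a culture the p-values measure technical spread.

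Here, peaks were joined to GENCODE gene models on GRCm38 and to the RefSeq sequence of GRCm38.p6 with Python 3.11.15, pandas 2.3.3 and pysam 0.24.0. A gene had a peak where at least 1 base lay over its body or the 1 kb upstream, and the percent of the body covered includes that 1 kb. Clusters were runs of at least 5 genes of a family with gaps of at most 500 kb. Differences of means were tested by exact two-sided permutation of 6 libraries, with Benjamini-Hochberg adjustment over each family of comparisons. The call of genes with a peak in 1 population only was tested on simulated peaks. The adjustment was not. No calls on genes carry a p.

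Named genes were, per direction, the 10 with the most covered bases among those with a peak in every library of 1 population only, the 6 with the largest difference in percent covered among those apart with all peaks and at equal list length, the 6 with the highest lowest coverage, and list members with a peak in at least 3 libraries, leaving out chromosome 18. For clusters and regions, the strongest per direction were named. Members and lists were chosen with earlier results of these data known. The repeat strings, relative cluster coverage and 1 Mb windows were chosen after seeing the data, as were the windows, clusters and single list genes described from them.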

Additional observations from a re-analysis of the deposited data

How the results depend on the processing

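Of 223 alternatives, 171 kept the direction of the result and, for counts, stayed within 1.5 times, 37 moved a count further and 15 reversed a direction. Not all 223 could change. For differences, the replicate-block alternative repeats the main value. The chromosome shares entered were those of the 6 chromosomes already apart in the same direction with all peaks and at equal list length. Repeats A and B were added after the data had been seen. Sizes of differences could still shift: germline genes went from 9.57 to 1.49 and endoderm genes from -4.77 to -0.181 points at equal list length. No listed endoderm gene had a peak in any library there, so -0.181 is the difference in all genes alone. No p could pass 0.05 in any of them. With lists of equal length, the trophectoderm difference, DP minus Pdgfra+ in points, turned to -4.18 and the imprinted one to -0.181. The latter is again the difference in all genes alone. Imprinted members with a peak were 22, 23 and 25 in DP and 24, 21 and 25 in Pdgfra+ cells. With the stronger 50% of each list trophectoderm turned to -5.37 and neural genes to 5.30. With peaks within 20 kb of the gene start, imprinted genes turned to -0.244, 2-cell genes to 1.03 and neural genes to 3.25. Chromosomes apart, 5 toward DP and 2 toward Pdgfra+ with all peaks, were 8 and 4 at equal list length, and 2 and 1 by share of peaks. Clusters apart, 1 and 0, were 8 and 7 at equal list length, 4 and 1 with the stronger 50%, 18 and 9 by share of signal, 12 and 9 by relative coverage and 15 and 9 by relative coverage at equal list length. Genes in 1 population only, 96 and 32, were 56 and 51 at equal list length. DP-only regions, 513, were 232 at equal list length and 283 with the stronger 50%, Pdgfra+-only regions, 136, were 85 with the stronger 50%, and regions in all 6, 2594, were 1279, 1327 and, with 50% reciprocal overlap, 1168. The cause was not tested.

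Leaving out each replicate number in turn left 2 libraries against 2, with a smallest p of 0.333. The difference in peaks per list ran from -8351.5 to 10625 and in covered length from -44.4 to 27.3 Mb, the first turning without replicate 2, which removes the shortest list, and the second without replicate 1, which removes the longest. In points, each turning without replicate 1 or without replicate 2, pluripotency ran from -6.38 to 1.67, trophectoderm from -4.33 to 3.62, 2-cell genes from -4.72 to 0.334, neural genes from -6.33 to 1.62, zinc finger gene ends from -8.12 to 0.216 and the share of repeat B from -0.794 to 0.0250. Repeat A, whose string was read from a Pdgfra+-only region, ran from -2.65 to -0.939 without turning. H3K9 methylation machinery was apart by -3.59 points with the stronger 50% of each list. Chromosomes apart ran from 6 to 9 toward DP and 2 to 6 toward Pdgfra+, clusters from 1 to 44 and 0 to 45, genes from 124 to 497 and 38 to 422, regions in 1 population only from 760 to 3132 and 202 to 2703, and regions in all 6 from 2892 to 4971. 

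Same-numbered libraries did not deviate together (r of -0.0901, -0.349 and 0.138 over 2737 windows of 1 Mb), so the replicate numbers were not taken as pairs. With the numbers as a block, whose smallest p is 0.25, clusters with all 3 differences toward DP were 5, and no other count moved by over 1.5 times.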
